A study of Homo sapiens with 9 samples.

Results

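The genes described here code for the respiratory chain and the ATP synthase of mitochondria. They are every gene whose symbol in the platform's annotation starts with NDUFA, NDUFB, NDUFC, NDUFS, NDUFV, UQCR, COX4 to COX8 or ATP5, together with the SDHA to SDHD series. Of 98 such symbols, 90 had a probe set annotated to that gene alone and were followed, out of 19775 genes measured in all. The other 8 shared every probe set with a further gene and were not analysed here. The 90 members comprised 77 subunits and close partners of the 5 complexes, 8 assembly factors of complex I (NDUFAF1 to NDUFAF8) and 5 pseudogenes, antisense or divergent transcripts that match by name only. By complex, the 77 were 33 genes of complex I, 3 of complex II, 6 of complex III, 17 of complex IV and 18 of complex V.

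The respiratory chain lies in the inner mitochondrial membrane. Complex I takes electrons from NADH and complex II takes them from succinate, and both pass them to ubiquinone (coenzyme Q). Complex III hands them on to cytochrome c, and complex IV gives them to oxygen. Complexes I, III and IV pump protons as they work, and complex V, the ATP synthase, uses the returning protons to make ATP. Most subunits are encoded in the nucleus and imported, a small set is encoded by mitochondrial DNA, and complex I is built from modules by dedicated assembly factors. Hepatocytes are rich in mitochondria.

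All RNA came from Huh7, a human hepatocarcinoma cell line, and was hybridised to 9 Affymetrix arrays, 3 biological replicates in each of 3 groups. Control cells received scramble siRNA, the SPTLC123 group received siRNA against SPTLC1, 2 and 3, and the DEGS1 group received siRNA against DEGS1, transfected with lipid at 20 nM in each case. The SPTLC proteins form serine palmitoyltransferase, which starts ceramide synthesis, and DEGS1 is the desaturase that makes ceramide from dihydroceramide at its end. The labels give 72 h after transfection as the time of sampling. By the treatment protocol, medium with less serum and added albumin was given at 72 h and the cells were taken after a further 24 h, on the same schedule in all groups. How many siRNAs were used per gene is not given in the sources used here. In such bulk RNA, fewer cells expressing a gene and less RNA per cell cannot be told apart.

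Of the targeted genes, SPTLC1, SPTLC2 and DEGS1 were read, and each was low in the arrays labelled for it. SPTLC1 in SPTLC123 stood at 20.7% of scramble and SPTLC2 at 48.4%, and DEGS1 in the DEGS1 group stood at 7.55%. All 8 hepatocyte markers measured exceeded the median of the probe sets, at mean log2 intensities of 11.2 to 14.3, and so did 3 of 3 markers of bile duct cells (up to 10.6), 3 of 4 of stellate cells and fibroblasts (up to 7.51), 2 of 3 of endothelium (up to 7.61) and none of 3 of leukocytes. A quality measure set 3 arrays apart. For the actin control, the 3′ probe set exceeded the 5′ probe set by 0.40 to 0.56 on the log2 scale in 6 arrays. The excess was 1.15 in SPTLC123 replicate 3 and, in DEGS1 replicates 2 and 3, 1.31 and 1.25. These 3 are called the arrays of weak 5′ signal below. None of them was a scramble array, and values without them or with the actin difference as a covariate stand beside the calls they changed.

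Most members were strongly expressed. Of the 90, 84 had a mean log2 intensity above the median of all probe-set means, 4.87, and the 6 below it included COX7A1, COX6B2, COX7B2 and COX8C, tissue isoforms of heart and skeletal muscle or testis. The brightest probe set of each complex was NDUFB4 in complex I, SDHA in II, UQCR10 in III, COX7A2 in IV and ATP5MK in V. Signals of different probe sets are not amounts of RNA that can be set against each other, so the values below compare 1 member across arrays. Each gene is read by its brightest probe set unless another is named. A member is said to be called, or to have risen or fallen, at an adjusted p under 0.05 in limma with Benjamini-Hochberg adjustment over all 19775 genes.

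With SPTLC123 siRNA, NDUFAF1, an assembly factor of complex I, fell to 33.6% of its scramble signal, and 4 further members fell by smaller amounts. They were COX7A2L, which joins complexes III and IV into supercomplexes, and the complex I subunits NDUFC1, NDUFB2 and NDUFB3. No member rose by the test. The 5 called were 5.56% of the 90, against 9.94% of all genes called in either direction, 5.31% higher and 4.63% lower. The share called lower was thus near that of all genes, and none was called higher. With genes below the median of all probe-set means left out, 5 of 84 members were called, beside 16.2% of the genes kept. By complex, 3 of 33 members of complex I, 1 of 17 of complex IV and 1 of 8 assembly factors fell, and none of complexes II, III or V passed the test. At an unadjusted p under 0.05 there were 15 members. No share of all genes at this threshold is given, here or below, so such counts cannot be read as high or low. The median change of the 90 was -0.07 on the log2 scale, beside -0.03 over all genes. Over all genes 1051 were called higher and 915 lower, and median centring of the arrays turned this split into 1309 and 695.

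Cell type markers moved in the same comparison, in which 4.63% of all genes were called lower and 5.31% higher. With SPTLC123 siRNA 4 of 8 hepatocyte markers were called lower (TTR at -1.03, APOA1 at -0.46, TF at -0.37 and SERPINA1 at -0.33), and 2 of 3 bile duct markers were called higher (KRT19 at 0.75 and EPCAM at 0.57). Of these, TTR, APOA1, KRT19 and EPCAM were also called without the weak arrays. Of 3 leukocyte markers, CD14 was called lower at -0.62, and no endothelial or stellate marker was called. With DEGS1 siRNA, TTR at -0.69 and CD14 at -0.54 were called lower, neither of them without the weak arrays. The mean log2 level of the 8 hepatocyte markers ran from 13.25 to 13.36 in the scramble arrays, from 12.84 to 12.96 in SPTLC123 and from 13.14 to 13.23 in DEGS1 siRNA, and that of the 3 bile duct markers from 7.9 to 8.1, from 8.4 to 8.5 and from 8.0 to 8.2 in the same order. Between the knockdowns, 2 of 8 hepatocyte markers were called higher in DEGS1 than in SPTLC123 siRNA, APOA1 at 0.67 and FGB at 0.79. The endothelial marker PECAM1 was called lower, at -0.37. Of all genes, 3.7% were called higher and 4.96% lower there. With the actin covariate APOA1 and FGB kept these calls, and PECAM1 lost its call (-0.36, adjusted p = 0.0507 in limma). Without the weak arrays the changes of APOA1, FGB and PECAM1 were 0.52, 0.79 and -0.43. That fit had 1 DEGS1 array, too few to decide these calls. The part of these markers in the results on the respiratory chain was not tested.

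With DEGS1 siRNA, 8 members fell and none rose. They were 3 assembly factors of complex I (NDUFAF1, NDUFAF4 and NDUFAF6), its distal membrane-arm subunits NDUFB3 and NDUFB11, the core protein UQCRC2 of complex III, COX7C of complex IV and ATP5MC1, a c subunit of the proton-driven ring of ATP synthase. This was 8.89% of the members, against 9.7% of all genes called in either direction, 4.66% higher and 5.04% lower. The share was near that of all genes called in either direction and above that called lower. With genes below the median of all probe-set means left out, 9 of 84 members were called, all lower, beside 16.6% of the genes kept. The assembly factors held 3 calls among 8 genes, complex I held 2 among 33, complex III 1 among 6, complex IV 1 among 17 and complex V 1 among 18. At an unadjusted p under 0.05 there were 19 members. The median change of the 90 was -0.13, beside -0.01 over all genes. Both comparisons use the same 3 scramble arrays, and NDUFAF1 and NDUFB3 were called in both.

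Between the knockdowns, 6 members were called, 6.67% of the 90 against 8.66% of all genes. NDUFAF1 was higher in DEGS1 than in SPTLC123 siRNA, and NDUFAF4, NDUFAF6, NDUFB11, COX7C and the pseudogene ATP5MC2P1 were lower. Of all genes, 3.7% (732) were called higher and 4.96% (981) lower, a split that median centring turned into 548 and 1179. At an unadjusted p under 0.05 there were 21 members. The median change of the members was -0.03, beside 0.01 over all genes. With quantile normalization, 4 members were higher and 5 lower, beside 817 and 822 of all genes, and the median of the members was 0.03, beside 0.0027 over all genes. In an F test for any difference among the 3 groups, 10 of the 90 members passed, 11.1%, against 16.5% of all genes. Across all these comparisons 12 members were called at least once.

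**Figure D1:**
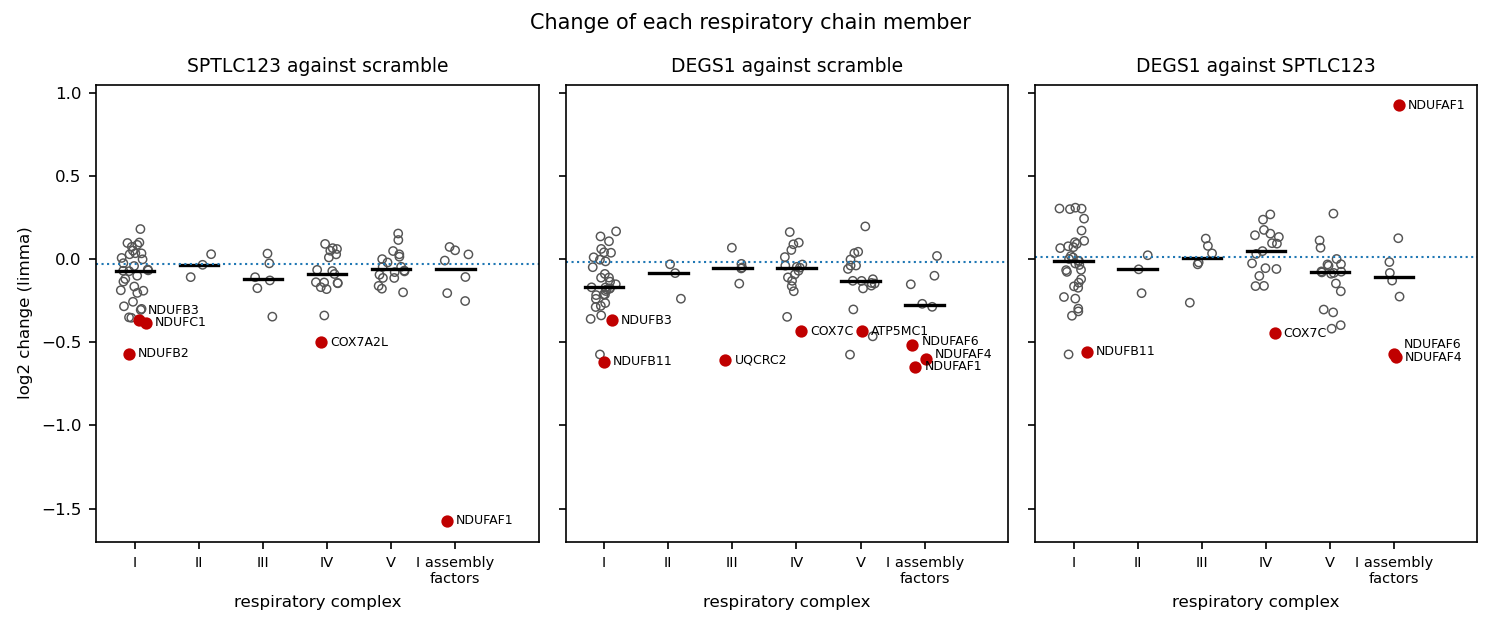
Change of each of 85 members on the log2 scale (limma, vertical axis) by complex (horizontal axis) in the 3 comparisons; each circle is 1 gene, filled red with its name where called at an adjusted p under 0.05, the short bar is the median of a complex and the dotted line the median of all genes. NDUFAF1 lies apart at -1.57 in SPTLC123 against scramble, while most open circles lie within 0.5 of 0; the 5 pseudogenes and antisense or divergent transcripts are not drawn.

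The assembly factors of complex I held the largest change in each comparison, that of NDUFAF1. NDUFAF1, a chaperone of the assembly complex that builds the membrane arm, had log2 intensities of 8.91, 9.16 and 9.16 in the scramble arrays. In SPTLC123 siRNA it stood at 7.52, 7.79 and 7.19, and in DEGS1 siRNA at 8.74, 8.23 and 8.31. The 3 groups did not overlap: every SPTLC123 array lay below every DEGS1 array, and every DEGS1 array lay below every scramble array. The change against scramble was -1.57 ± 0.17 (SE) in SPTLC123 (adjusted p = 0.000222 in limma) and -0.65 ± 0.17 (SE) in DEGS1 (adjusted p = 0.0357), which left 33.6% and 63.8% of the signal. The difference between the knockdowns was itself called, at 0.93 ± 0.17 (SE) with an adjusted p of 0.00651 in limma. NDUFAF1 was measured by a single probe set.

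The calls of NDUFAF1 did not hold equally. The fall in SPTLC123 was -1.42 without the 3 arrays of weak 5′ signal and -1.45 with the actin covariate, with adjusted p-values in limma of 0.00077 and 9.9e-06, and it was called in all 21 alternative settings. Leaving out each array in turn gave adjusted p-values of 7.16e-05 to 0.0021. The difference between the knockdowns also passed in all 21, and within the weak arrays alone, DEGS1 replicates 2 and 3 against SPTLC123 replicate 3, it was 1.08. The fall in DEGS1 was -0.34 without the weak arrays and -0.36 with the covariate, and it was called in neither (adjusted p = 0.448 and 0.129). That call was also lost in limma without scramble replicate 2 or 3, SPTLC123 replicate 1, or DEGS1 replicate 2 or 3, with adjusted p-values up to 0.147.

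NDUFAF4 and NDUFAF6, early assembly factors of complex I, were low in the DEGS1 arrays. NDUFAF4 stood at 10.21, 9.96 and 10.17 in scramble, 10.35, 10.11 and 9.86 in SPTLC123 and 9.76, 9.44 and 9.34 in DEGS1 siRNA. All DEGS1 arrays lay below all others, and the scramble and SPTLC123 arrays overlapped. It changed by -0.60 ± 0.15 (SE) against scramble (adjusted p = 0.0269 in limma) and by -0.59 ± 0.15 (SE) against SPTLC123 (adjusted p = 0.0293). A second, dimmer probe set of NDUFAF4 did not follow the first: it changed by 0.16 in DEGS1 and by 0.87 in SPTLC123 against scramble, where it was called higher in the limma fit of every probe set on its own (adjusted p = 0.034). The direction of NDUFAF4 therefore rests on the brighter probe set.

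NDUFAF6 stood at 9.09, 8.98 and 9.12 in scramble, 9.26, 9.20 and 8.89 in SPTLC123 and 8.68, 8.56 and 8.41 in DEGS1 siRNA. Again the DEGS1 arrays lay below all 6 others. Its change was -0.52 ± 0.12 (SE) against scramble and -0.57 ± 0.12 (SE) against SPTLC123 (adjusted p = 0.0191 and 0.012 in limma). Its second probe set changed by -0.45 and -0.06 in these comparisons and was not called. Within the 3 arrays of weak 5′ signal, the DEGS1 arrays differed from the SPTLC123 array by -0.46 for NDUFAF4 and by -0.41 for NDUFAF6. Without the weak arrays the change against scramble was -0.36 for NDUFAF4 and -0.39 for NDUFAF6 (adjusted p = 0.39 and 0.225 in limma), and with the covariate it was -0.37 and -0.36 (adjusted p = 0.108 and 0.0829). Both calls against scramble were also lost without scramble replicate 1 or 3 or DEGS1 replicate 2 or 3, with adjusted p-values up to 0.121 in limma among the fits that left out 1 array. The calls against SPTLC123 were kept with the covariate, and without the weak arrays they were lost, at -0.47 and -0.55 (adjusted p = 0.26 and 0.098). They were also lost without SPTLC123 replicate 1 or 2 or DEGS1 replicate 3, and for NDUFAF4 without DEGS1 replicate 2 (up to 0.13).

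The other 5 assembly factors were not called in any comparison. NDUFAF2, a late factor of the peripheral arm, changed by -0.29 ± 0.09 (SE) in DEGS1 (adjusted p = 0.0616 in limma), and NDUFAF7, a methyltransferase that modifies a core subunit, by -0.27 ± 0.10 (SE). Both had groups that did not overlap in either knockdown against scramble. NDUFAF5 changed by -0.15 and its partner NDUFAF8 by -0.10. NDUFAF3, the brightest of the assembly factors, changed by 0.02 ± 0.11 (SE) in DEGS1 and -0.11 ± 0.11 (SE) in SPTLC123, with 95% intervals of -0.22 to 0.26 and -0.34 to 0.13.

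**Figure D2:**
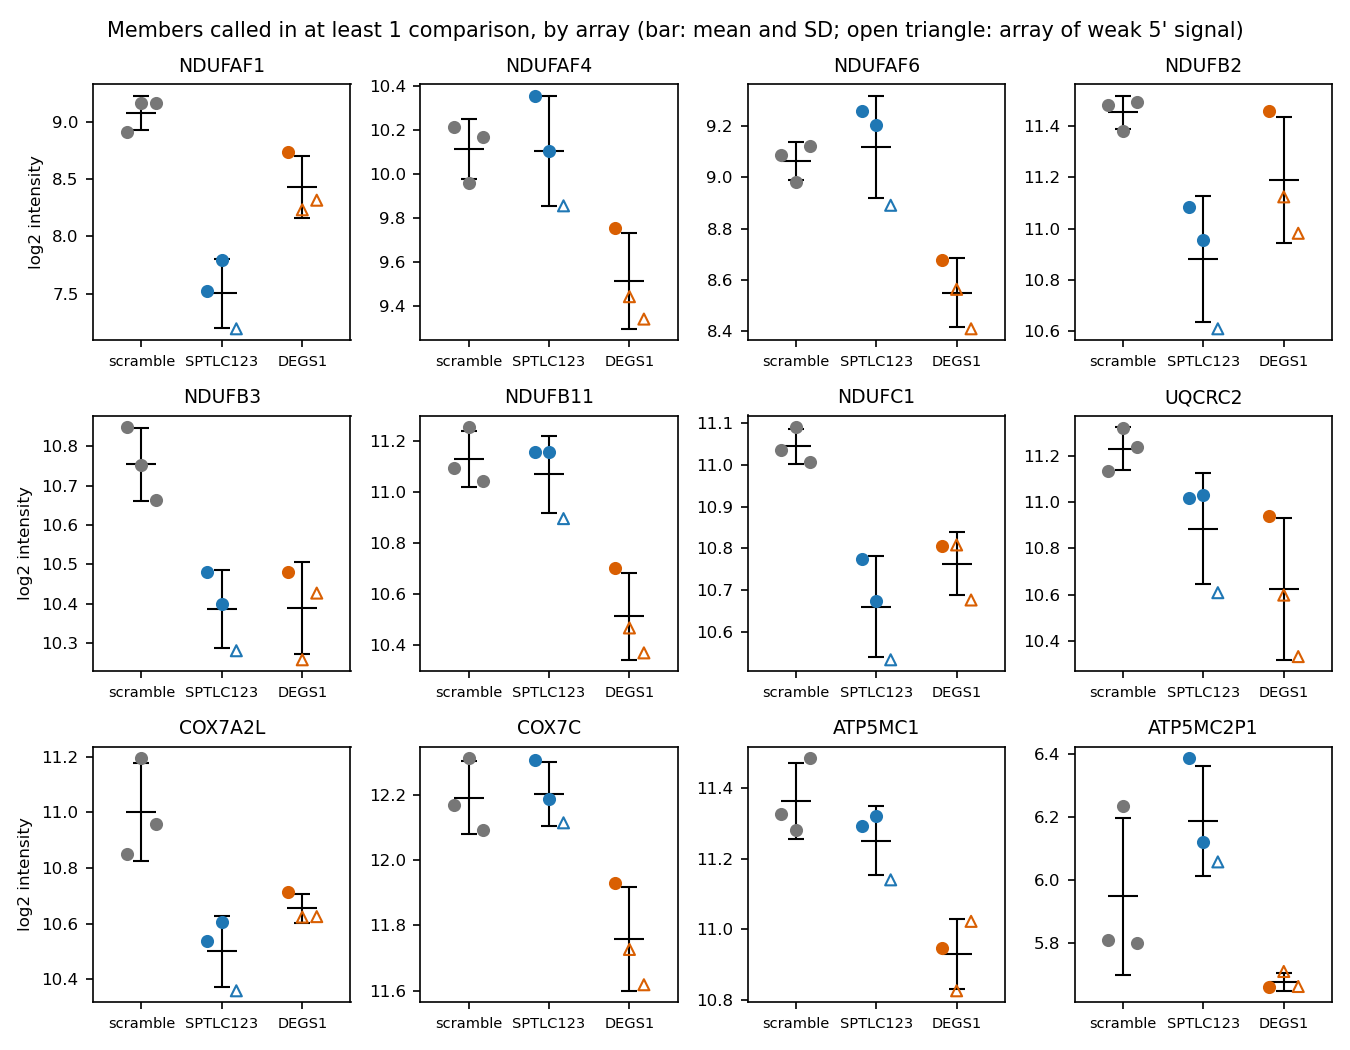
Log2 intensity (vertical axis) of the 12 members called in at least 1 comparison, in each of 9 arrays by siRNA group (horizontal axis); points are arrays, open triangles the 3 arrays of weak 5′ signal, and bars the mean with the SD (n = 3). The vertical scales differ between panels; NDUFAF1 is lowest in SPTLC123 siRNA, and NDUFAF4, NDUFAF6, NDUFB11 and COX7C are low in DEGS1 siRNA alone.

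In complex I, 5 core and 28 accessory subunits were measured, and the called ones were all small accessory subunits of the membrane arm. NDUFB11 stood at 11.10, 11.25 and 11.04 in scramble and 11.15, 11.16 and 10.90 in SPTLC123, which overlapped. In DEGS1 siRNA it stood at 10.70, 10.47 and 10.37, below all 6 other arrays. It changed by -0.62 ± 0.12 (SE) against scramble (adjusted p = 0.008 in limma) and by -0.56 ± 0.12 (SE) against SPTLC123 (adjusted p = 0.0136). Of the 8 members called in DEGS1 against scramble, NDUFB11 alone passed with the covariate, at -0.46 and an adjusted p of 0.0301 in limma, and it alone passed in all 9 fits that left out 1 array. Without the weak arrays its change was -0.43, with an adjusted p of 0.205 in a fit where DEGS1 had 1 array. The call against SPTLC123 was kept with the covariate but lost without the weak arrays (-0.45, adjusted p = 0.196) and without SPTLC123 replicate 1 or 2 or DEGS1 replicate 2 or 3 (up to 0.067).

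NDUFB3 was the subunit that fell in both knockdowns. It stood at 10.85, 10.75 and 10.66 in scramble, 10.48, 10.40 and 10.28 in SPTLC123 and 10.48, 10.26 and 10.43 in DEGS1 siRNA. Every knockdown array lay below every scramble array, and the knockdowns overlapped each other. The changes were -0.37 ± 0.10 (SE) and -0.37 ± 0.10 (SE), with adjusted p-values of 0.039 and 0.0411 in limma. These calls were close to the threshold, and that in SPTLC123 was lost with median centring and that in DEGS1 with quantile normalization. Each was lost in 7 of 9 fits that left out 1 array, among them those without any of the scramble arrays, and the highest adjusted p was 0.127 for SPTLC123 and 0.167 for DEGS1. The changes without the weak arrays were -0.31 and -0.27 (adjusted p = 0.11 and 0.436 in limma), neither called. With the covariate SPTLC123 kept its call (-0.33, adjusted p = 0.0351) and DEGS1 lost it (-0.28, adjusted p = 0.177).

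NDUFB2 and NDUFC1 fell in SPTLC123 siRNA. NDUFB2 stood at 11.48, 11.38 and 11.49 in scramble, 11.08, 10.96 and 10.61 in SPTLC123 and 11.46, 11.12 and 10.98 in DEGS1 siRNA, where replicate 1 lay at the scramble level and the weak arrays close to SPTLC123 replicates 1 and 2. NDUFC1 stood at 11.03, 11.09 and 11.01 in scramble, 10.77, 10.68 and 10.53 in SPTLC123 and 10.81, 10.81 and 10.68 in DEGS1 siRNA. All SPTLC123 arrays of both genes lay below all scramble arrays. The changes in SPTLC123 were -0.57 ± 0.14 (SE) and -0.38 ± 0.09 (SE), with adjusted p-values of 0.03 and 0.0243 in limma. The pair of further probe sets of NDUFB2 changed by -0.52 and -0.39 and the dim second probe set of NDUFC1 by -0.11, none of them called. With median centring of the arrays, the calls of both genes in SPTLC123 were lost, and that of NDUFC1 also with the mean of its probe sets. NDUFB2 was called with the covariate (-0.47, adjusted p = 0.00582) and without the weak arrays (-0.43, adjusted p = 0.0374). NDUFC1 missed the threshold without them (adjusted p = 0.0904), and both missed it without any 1 scramble array or without SPTLC123 replicate 2 or 3 (up to 0.0996).

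None of the 5 core subunits of complex I passed the test in any comparison. NDUFV1, which binds NADH where electrons enter, changed by -0.35 ± 0.12 (SE) in SPTLC123 and -0.05 ± 0.12 (SE) in DEGS1 (adjusted p = 0.0842 and 0.857 in limma). Its partner NDUFV2 changed by -0.02 ± 0.09 (SE) and -0.01 ± 0.09 (SE), with 95% intervals of -0.21 to 0.16 and -0.20 to 0.18. NDUFS3 changed by -0.34 ± 0.11 (SE) in DEGS1, NDUFS7 by -0.30 ± 0.13 (SE) in SPTLC123 and NDUFS1 by -0.15 ± 0.11 (SE) in DEGS1. The brightest subunit probe set of the complex, NDUFB4 in the distal membrane arm, changed by 0.18 ± 0.08 (SE) in SPTLC123 (adjusted p = 0.217), the highest change of any subunit there. NDUFB10, named after its values were seen, stood at 11.01, 10.99 and 10.77 in SPTLC123 siRNA, below all other arrays, which lay at 11.19 to 11.26. It missed the threshold at -0.30 ± 0.09 (SE) (adjusted p = 0.0653 in limma). The median change of the 33 subunits was -0.07 in SPTLC123 and -0.17 in DEGS1, with 23 and 26 of them below 0.

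Complex II had the fewest members and no call. SDHA, the flavoprotein that oxidises succinate, changed by 0.03 ± 0.12 (SE) in SPTLC123 and -0.03 ± 0.12 (SE) in DEGS1. The membrane anchors SDHC and SDHD changed by -0.11 ± 0.15 (SE) and -0.03 ± 0.11 (SE) in SPTLC123, and by -0.08 ± 0.15 (SE) and -0.24 ± 0.11 (SE) in DEGS1. All 95% intervals of these 3 genes against scramble lay within 0.5 on the log2 scale of 0. SDHD stood at 10.18, 9.87 and 9.85 in DEGS1 siRNA, where replicate 1 lay among the scramble arrays (10.16, 10.33 and 10.11) and the weak arrays below them.

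In complex III, UQCRC2, a core protein on the matrix side, was called in DEGS1 siRNA. It stood at 11.13, 11.32 and 11.24 in scramble, 11.02, 11.03 and 10.61 in SPTLC123 and 10.94, 10.60 and 10.33 in DEGS1 siRNA. All knockdown arrays lay below all scramble arrays, and the lowest values were those of the 3 weak arrays. It changed by -0.61 ± 0.16 (SE) in DEGS1 and -0.35 ± 0.16 (SE) in SPTLC123 (adjusted p = 0.036 and 0.223 in limma). A second bright probe set changed by -0.97 in DEGS1 and a further, dim one by 0.35, neither called. Without the weak arrays the change in DEGS1 was -0.29 and with the covariate -0.34 (adjusted p = 0.392 and 0.138). It was also lost without any 1 scramble array or without DEGS1 replicate 2 or 3 (up to 0.148).

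The other members of complex III kept closer to scramble. UQCRC1, the partner core protein, changed by -0.11 ± 0.10 (SE) and -0.03 ± 0.10 (SE), and UQCRB, at the ubiquinone site, by -0.02 ± 0.10 (SE) and -0.06 ± 0.10 (SE), in SPTLC123 and DEGS1 in that order. The brightest, UQCR10, changed by -0.17 ± 0.08 (SE) and -0.05 ± 0.08 (SE); its SPTLC123 arrays, at 12.15, 12.17 and 12.07, lay below its scramble arrays, at 12.32, 12.34 and 12.25, but it was not called (adjusted p = 0.239 in limma).

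In complex IV, cytochrome c oxidase, COX7A2L and COX7C were called. COX7A2L stood at 10.85, 11.20 and 10.96 in scramble, 10.54, 10.61 and 10.36 in SPTLC123 and 10.72, 10.62 and 10.63 in DEGS1 siRNA. The groups did not overlap, with SPTLC123 lowest and DEGS1 between. It changed by -0.50 ± 0.11 (SE) in SPTLC123, which left 70.7% of the signal (adjusted p = 0.0146 in limma). In DEGS1 the change was -0.35 ± 0.11 (SE) and missed the threshold (adjusted p = 0.0728), and the difference between the knockdowns, 0.15 ± 0.11 (SE), was not called either (adjusted p = 0.449). The call in SPTLC123 was kept with the covariate (-0.47, adjusted p = 0.0128). It was lost without the weak arrays (-0.43, adjusted p = 0.0755), without scramble replicate 2 and without SPTLC123 replicate 3 (up to 0.0574).

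COX7C, a small membrane subunit, stood at 12.17, 12.31 and 12.09 in scramble, 12.31, 12.19 and 12.11 in SPTLC123 and 11.93, 11.73 and 11.62 in DEGS1 siRNA. The scramble and SPTLC123 arrays overlapped, and all DEGS1 arrays lay below them. The changes were -0.43 ± 0.11 (SE) against scramble and -0.44 ± 0.11 (SE) against SPTLC123 (adjusted p = 0.0291 and 0.027 in limma). Its further probe sets moved alike, by -0.56 and -0.47 against scramble, without a call. Its main probe set carries the suffix by which the manufacturer marks probes that may also bind other transcripts. The changes without the weak arrays were -0.26 against scramble and -0.32 against SPTLC123 (adjusted p = 0.49 and 0.4 in limma), neither called, and within them the difference from SPTLC123 was -0.44. The call against SPTLC123 was kept with the covariate and lost without SPTLC123 replicate 1 or 2 or DEGS1 replicate 2 or 3 (up to 0.121). The call against scramble was lost with the covariate (-0.32, adjusted p = 0.135), without any 1 scramble array and without DEGS1 replicate 2 or 3 (up to 0.131).

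Tissue isoforms of complex IV were read in pairs, each gene against itself across arrays. The ubiquitous COX4I1 ranged from 12.40 to 12.64 over the 9 arrays and its counterpart of lung and low oxygen, COX4I2, from 5.20 to 5.66. COX6A1 ranged from 12.62 to 12.88 and the muscle form COX6A2 from 4.70 to 5.10. COX6B1 ranged from 11.82 to 12.02 and the testis form COX6B2 from 4.21 to 4.49. In these 3 pairs a group lay apart from both others for COX6A1 alone, where the SPTLC123 arrays were lowest. COX7A2 ranged from 12.64 to 12.90 and the muscle form COX7A1 from 3.71 to 4.28. COX7B ranged from 11.27 to 11.70 and COX7B2 from 3.79 to 4.19. COX8A ranged from 11.59 to 12.34 and COX8C from 2.75 to 3.15. None of these 12 genes was called in any comparison. The largest change among them was that of COX8A in SPTLC123, -0.34 ± 0.12 (SE) (adjusted p = 0.119 in limma), with the lowest value in the weak array. For the dim isoforms, near the background of the array, a fold change is compressed.

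In complex V, ATP5MC1 was the called member. The proton-driven ring is made of identical c subunits that 3 genes encode, ATP5MC1, ATP5MC2 and ATP5MC3. ATP5MC1 stood at 11.33, 11.28 and 11.48 in scramble, 11.29, 11.32 and 11.14 in SPTLC123 and 10.95, 10.83 and 11.02 in DEGS1 siRNA. All DEGS1 arrays lay below the other 6, and DEGS1 replicate 1, with its full 5′ signal, lay between the weak arrays. The change was -0.43 ± 0.10 (SE) against scramble (adjusted p = 0.0196 in limma). It was -0.42 without the weak arrays and -0.37 with the covariate, with adjusted p-values of 0.214 and 0.0819. It was also lost without scramble replicate 3 or DEGS1 replicate 2 (up to 0.0916).

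The other genes of the c subunit and of the catalytic head were not called. ATP5MC2 changed by -0.05 ± 0.10 (SE) and -0.12 ± 0.10 (SE) in SPTLC123 and DEGS1. ATP5MC3, named with NDUFS4 and ATP5F1A after their values were seen, stood at 12.85, 12.79 and 12.89 in scramble, 12.84, 12.81 and 12.34 in SPTLC123 and 12.78, 12.06 and 11.97 in DEGS1 siRNA. Its lowest values were the 3 weak arrays, and its change of -0.57 ± 0.20 (SE) in DEGS1 missed the threshold (adjusted p = 0.0971 in limma). The alpha subunit ATP5F1A, at 12.93, 12.33 and 12.43 in DEGS1 siRNA, and the complex I subunit NDUFS4, at 8.38, 7.83 and 7.60, had the same order, with replicate 1 close to the scramble arrays and the weak replicates far below. Their changes in DEGS1 were -0.46 ± 0.16 (SE) and -0.57 ± 0.20 (SE), neither called.

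The beta subunit ATP5F1B, where ATP is made, changed by 0.00 ± 0.12 (SE) in SPTLC123 and -0.30 ± 0.12 (SE) in DEGS1. The gamma subunit ATP5F1C had the lowest adjusted p of the complex in SPTLC123, at 0.15 ± 0.08 (SE) (adjusted p = 0.287 in limma), with all SPTLC123 arrays above all scramble arrays. ATP5MK, its brightest member, changed by 0.03 ± 0.12 (SE) and -0.00 ± 0.12 (SE). ATP5IF1, the inhibitor that stops the synthase from splitting ATP, changed by -0.20 ± 0.12 (SE) and -0.13 ± 0.12 (SE) by its brightest probe set.

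Dimmer probe sets of complex V genes gave calls that the brightest ones did not. In the limma fit of every probe set on its own, the 90 members had 173 probe sets, of which 3.47% were called in SPTLC123, 2.31% in DEGS1 and 4.05% between the knockdowns, beside 5.96%, 5.16% and 5.04% of 41091 probe sets of all genes. A dimmer probe set of ATP5MG, a membrane subunit of the synthase, had a mean log2 intensity of 8.34, above the median of 4.87. It stood at 8.77, 8.86 and 8.88 in scramble, 7.73, 7.72 and 7.01 in SPTLC123 and 8.82, 8.66 and 8.62 in DEGS1 siRNA. All SPTLC123 arrays lay below the other 6, and it changed by -1.35 against scramble and by 1.21 between the knockdowns (adjusted p = 0.0024 and 0.00515 in limma). The other 3 probe sets of ATP5MG, all brighter, changed by -0.16, -0.13 and -0.11 in SPTLC123 with no call. All of them carry the same suffix as the main probe set of COX7C, which marks probes that may also bind other transcripts.

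A dimmer probe set of ATP5IF1 stood at 7.66, 7.51 and 7.62 in scramble, 6.81, 6.80 and 6.79 in SPTLC123 and 7.45, 7.38 and 7.32 in DEGS1 siRNA. The 3 groups did not overlap, with SPTLC123 lowest. It changed by -0.80 against scramble and by 0.59 between the knockdowns (adjusted p = 0.00076 and 0.00416 in limma), while a further probe set changed by -0.11 in SPTLC123. Dimmer probe sets of NDUFV3 in DEGS1 against scramble (-0.46, adjusted p = 0.0436) and of ATP5MJ between the knockdowns (-0.56, adjusted p = 0.0214) were also called. The brightest probe set of NDUFV3 went the other way in DEGS1, at 0.17, and that of ATP5MJ changed by -0.07 between the knockdowns. Neither of these was called. The direction for ATP5IF1 and ATP5MG in SPTLC123 was the same in all their probe sets, and the size differed.

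The pseudogene ATP5MC2P1, at a low level, stood at 6.39, 6.12 and 6.06 in SPTLC123 and 5.66, 5.71 and 5.66 in DEGS1 siRNA and changed by -0.51 ± 0.13 (SE) between them (adjusted p = 0.0347 in limma). Its probes may share sequence with the parent gene, so this value is uncertain. The call was kept with the covariate and lost without the weak arrays (-0.59, adjusted p = 0.262 in limma).

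How precisely the members were measured can be read from their intervals. In SPTLC123 against scramble, 77 of 90 members had a 95% interval of the change within 0.5 of 0 on the log2 scale, which is 1.41-fold, and 89 had one within 1, which is 2-fold. In DEGS1 against scramble these counts were 70 and 87. With 3 arrays a group, the number of arrays limits what could be called.

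The small changes leaned downwards in both knockdowns. In SPTLC123, 21 members (23.3%) had all knockdown arrays below all scramble arrays, against 15.4% of all genes, and 3 had them all above, against 13.5% of all genes. In DEGS1, 27 members (30%) lay wholly below scramble, against 13.7% of all genes, and 1 lay wholly above, against 12.6%. These shares of all genes include many dim genes, while most members were bright. No share among brighter genes is given, so the members are not set against genes of like level. By complex, those wholly below in DEGS1 were 9 of 33 in complex I, 0 of 3 in II, 1 of 6 in III, 3 of 17 in IV, 6 of 18 in V and 6 of 8 among the assembly factors. In SPTLC123 they were 10, 0, 3, 5, 0 and 3 in the same order. The medians by complex in SPTLC123 were -0.07 in complex I, -0.03 in II, -0.12 in III, -0.09 in IV, -0.06 in V and -0.06 among the assembly factors. In DEGS1 they were -0.17, -0.08, -0.05, -0.05, -0.13 and -0.28 in that order. The median of complex III in DEGS1 turned to 0.04 with quantile normalization, and that of complex II in SPTLC123 to 0.01 with median centring; the other medians against scramble kept their sign under both scalings. The median of all 90 members was -0.08 and -0.07 with quantile normalization and -0.03 and -0.15 with median centring, in SPTLC123 and DEGS1 in that order. No test was made of these shifts.

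The arrays of a group did not carry this lean equally. Over the 77 subunits, the median level relative to the scramble mean was -0.04, 0.08 and -0.03 in the scramble arrays, -0.03, -0.04 and -0.17 in SPTLC123, and -0.09, -0.14 and -0.14 in DEGS1 siRNA. Scramble replicate 2 was the highest array, with 16 of 77 subunits below the scramble mean, and SPTLC123 replicate 3 the lowest, with 65. In the DEGS1 arrays 58, 59 and 57 subunits lay below the scramble mean, so DEGS1 replicate 1, with its full 5′ signal, had as many as the weak arrays at a smaller median shift. In the SPTLC123 arrays of full 5′ signal, 41 and 52 lay below.

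**Figure D3:**
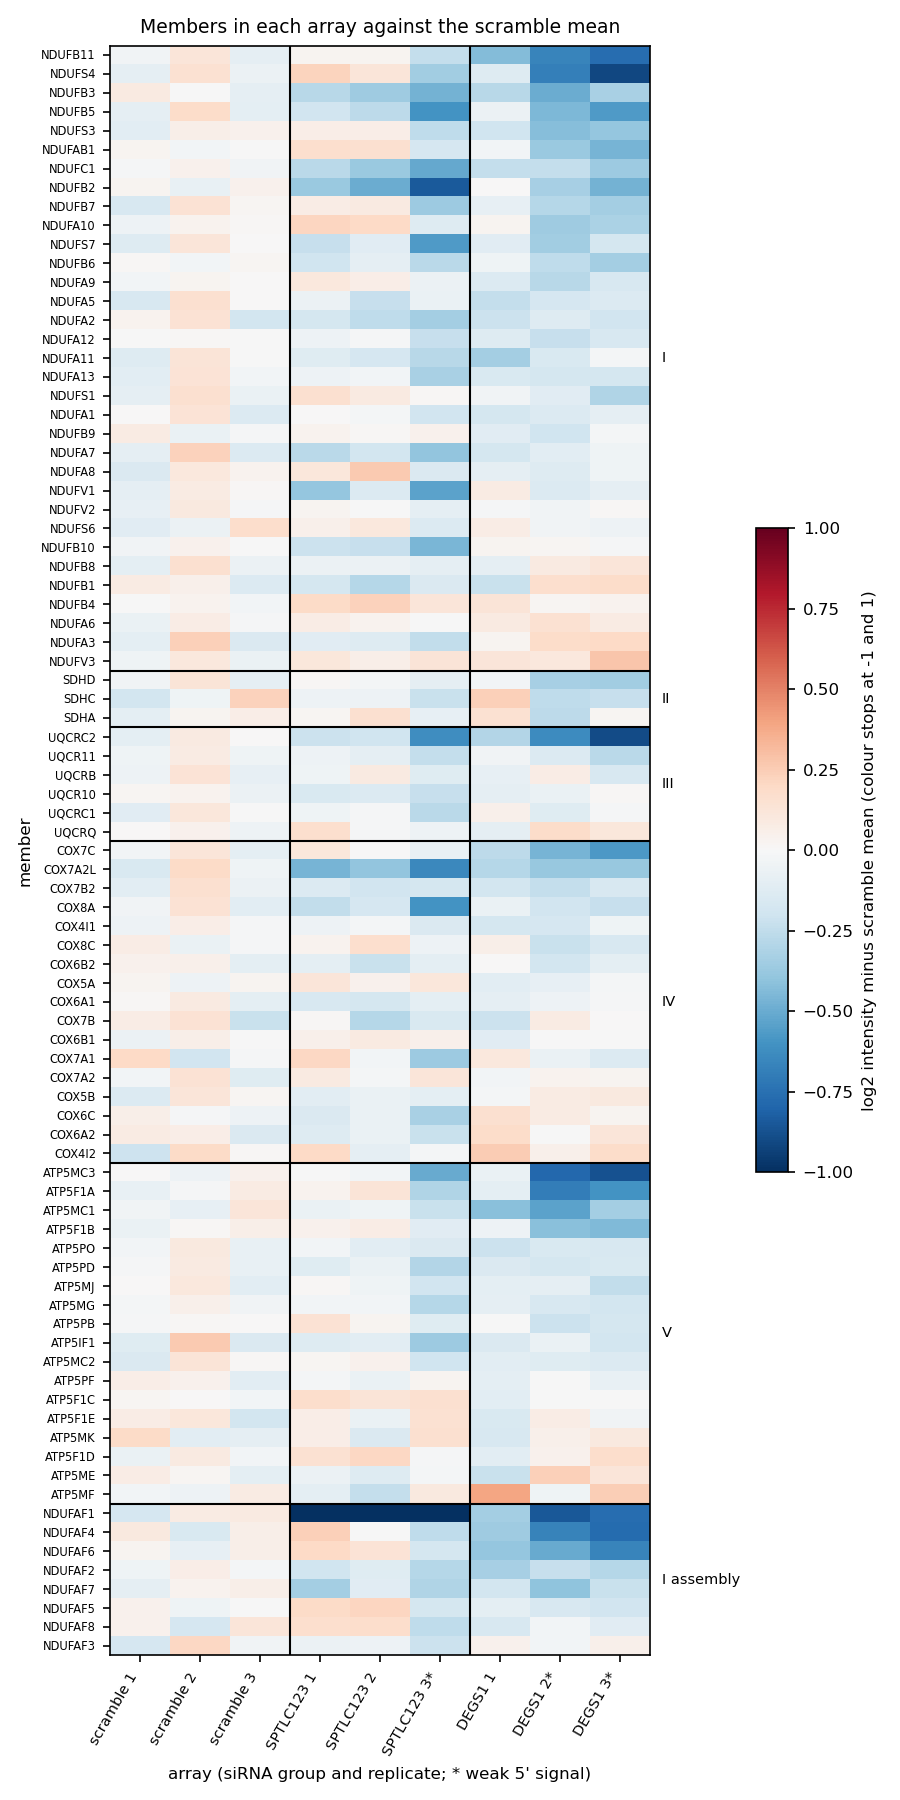
Log2 intensity of 85 members (rows, by complex, ordered within it by the change in DEGS1) minus each member's scramble mean, in 9 arrays (columns; an asterisk marks weak 5′ signal); blue is lower, red higher, and colour stops at -1 and 1. NDUFAF1 is dark blue in all SPTLC123 arrays, and the weak arrays hold the other darkest cells, such as NDUFS4, UQCRC2 and ATP5MC3 in DEGS1 replicate 3.

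Members were lower in the weak arrays than in the other arrays of the same siRNA. The median difference was -0.16 over the 90 members in SPTLC123 and -0.06 in DEGS1, beside -0.01 and -0.01 over all genes. A difference of at least 0.3 downwards in both groups, a limit chosen after the values were seen, was found for 10 members (11.1%), against 5.55% of all genes. They were ATP5F1A, ATP5MC3, NDUFA10, NDUFAB1, NDUFAF1, NDUFAF4, NDUFB2, NDUFB5, NDUFS4 and UQCRC2. None was higher by as much in both, against 4.27% of all genes. In SPTLC123 against scramble, 5 members were called with the covariate, as without it, while 13.9% of all genes were, and 2 without the weak arrays (NDUFAF1 and NDUFB2) beside 7.6%. In DEGS1 against scramble, 1 was called with the covariate beside 5.63% of all genes. Without the weak arrays none was called by limma, with 6 at an unadjusted p under 0.05, beside 1.31% of all genes called, in a fit whose 1 DEGS1 array takes its spread from the other groups. Between the knockdowns, 10 members were called with the covariate beside 10.3% of all genes, and 1 without the weak arrays beside 1.42%.

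The DEGS1 calls depended on single arrays in the same way. Leaving out DEGS1 replicate 1, 2 or 3 turned the count of 8 into 16, 1 and 2, beside 18.3%, 4.25% and 4.05% of all genes called. Leaving out scramble replicate 1, 2 or 3 turned it into 3, 4 and 1, beside 7.01%, 5.76% and 4.85%. In SPTLC123 the count of 5 became 1 without SPTLC123 replicate 3 or scramble replicate 2, beside 6.69% and 6.7% of all genes called. It became 2 without scramble replicate 1 or 3, beside 7.57% and 6.64%, and 3 without SPTLC123 replicate 2, beside 7.49%. Between the knockdowns the count of 6 became 1 without SPTLC123 replicate 1 or 2 or DEGS1 replicate 3, beside 4.25%, 5.11% and 4.47% of all genes. It became 2 without DEGS1 replicate 2 (4.39%), 9 without SPTLC123 replicate 3 (9.14%) and 13 without DEGS1 replicate 1 (14.7%).

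**Figure D4:**
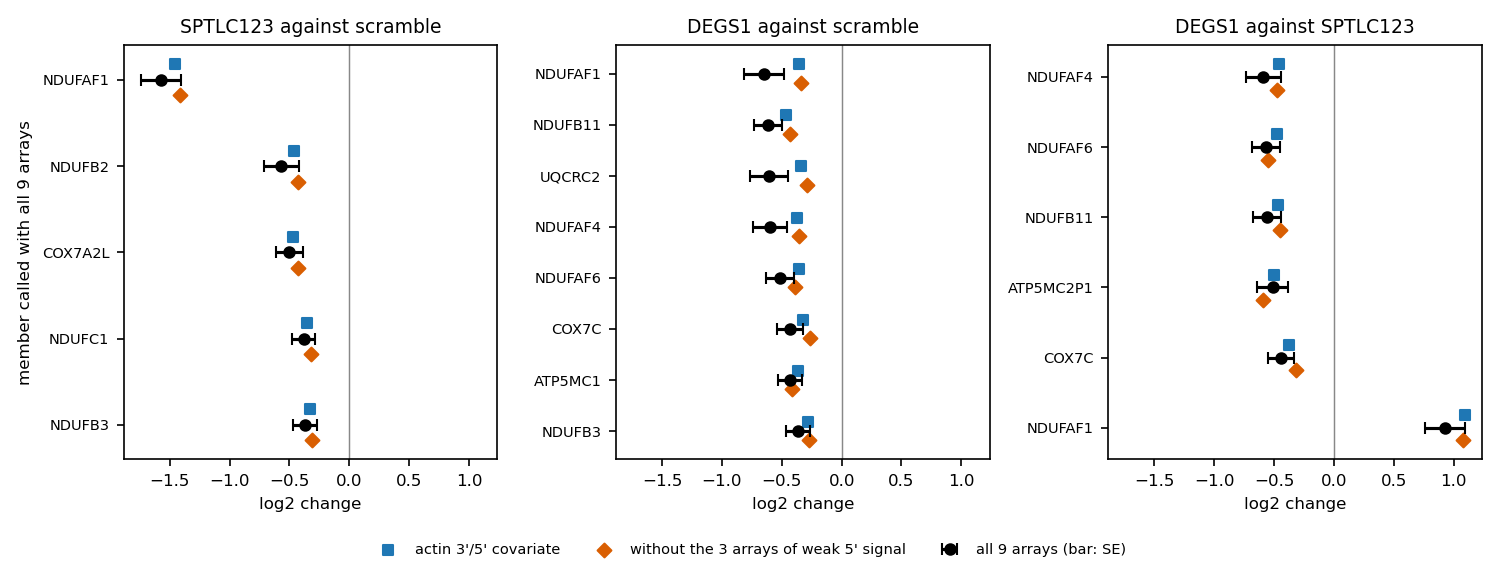
Log2 change (horizontal axis) of each called member (vertical axis) in the 3 comparisons, with all 9 arrays (black circles, bars are the SE of the limma fit), with the actin 3′ minus 5′ difference as a covariate (blue squares) and without the 3 arrays of weak 5′ signal (orange diamonds). All values keep their side of 0; those of DEGS1 against scramble move towards 0, for UQCRC2 from -0.61 to -0.29 without the weak arrays, while NDUFAF1 moves from -1.57 to -1.42 in SPTLC123 against scramble.

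Genes that serve the chain outside the symbols above were read from fixed lists. Of 7 electron carriers and related enzymes, none passed the limma test in SPTLC123, where 2 had an unadjusted p under 0.05, and 2 fell in DEGS1 siRNA. Of all genes, 4.63% were called lower in SPTLC123 and 5.04% in DEGS1. CYC1, the haem-bearing cytochrome c1 of complex III, stood at 11.22, 11.33 and 11.38 in scramble, 11.02, 10.99 and 10.61 in SPTLC123 and 10.72, 10.33 and 10.44 in DEGS1 siRNA. Every scramble array lay above every knockdown array, and SPTLC123 replicate 3 lay within the DEGS1 values. It changed by -0.81 ± 0.13 (SE) in DEGS1 (adjusted p = 0.0038 in limma), and was called with the covariate (-0.59, adjusted p = 0.00591) but not without the weak arrays (-0.59, adjusted p = 0.0745). GPD2, which feeds electrons from glycerol phosphate to ubiquinone, changed by -0.56 ± 0.10 (SE) in DEGS1 (adjusted p = 0.00538) and was called with the covariate (-0.44, adjusted p = 0.0209) but not without the weak arrays (-0.39, adjusted p = 0.21). CYCS, cytochrome c, changed by -0.21 ± 0.09 (SE) and -0.04 ± 0.09 (SE) and was not called.

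Of 43 assembly factors outside the symbols, 7 fell and none rose in SPTLC123, and 6 fell and 1 rose in DEGS1 siRNA, beside 4.63% lower and 5.31% higher of all genes in SPTLC123 and 5.04% and 4.66% in DEGS1. COX11, which brings copper to complex IV, changed by -0.69 ± 0.13 (SE) in SPTLC123 (adjusted p = 0.00806 in limma). DMAC1, a factor of the distal membrane arm of complex I, changed by -0.71 ± 0.17 (SE) in SPTLC123 and -0.86 ± 0.17 (SE) in DEGS1, called in both. TIMMDC1, which joins membrane-arm modules of complex I, changed by -1.06 ± 0.23 (SE) in DEGS1, but by -0.48 without the weak arrays, where it was not called. TMEM126B, an assembly factor of complex I, changed by -0.39 ± 0.09 (SE) in SPTLC123 (adjusted p = 0.0147 in limma). Without the weak arrays its change was -0.34, and it was not called. Other factors of the list, such as ECSIT at -0.11 ± 0.11 (SE) and ACAD9 at 0.05 ± 0.09 (SE), were not called in SPTLC123. Without the weak arrays 3 of the 43 were called lower in SPTLC123, beside 7.6% of all genes called in either direction. DEGS1 had 1 array in that fit, too few to decide its calls. With the covariate 8 fell and 2 rose in SPTLC123 and 2 fell in DEGS1, beside 13.9% and 5.63% of all genes called in either direction.

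Coenzyme Q synthesis had 11 genes measured, of which 1 rose and 1 fell in SPTLC123 and 1 rose and 3 fell in DEGS1, beside 9.94% and 9.7% of all genes called in either direction. PDSS1, a subunit of the enzyme that makes the isoprenoid tail, stood at 9.04, 8.67 and 8.91 in scramble, 9.91, 9.79 and 9.70 in SPTLC123 and 9.45, 9.36 and 9.36 in DEGS1 siRNA. COQ2, which joins that tail to the ring, stood at 8.58, 8.32 and 8.47, 7.40, 7.33 and 7.26 and 8.11, 7.88 and 7.92 in the same order. For both genes SPTLC123 lay farthest from scramble and DEGS1 between, with no overlap of groups. PDSS1 changed by 0.93 ± 0.11 (SE) in SPTLC123 and 0.52 ± 0.11 (SE) in DEGS1, and COQ2 by -1.13 ± 0.10 (SE) and -0.49 ± 0.10 (SE). All 4 values were called by limma, and those in SPTLC123 were also called without the weak arrays, at 0.98 and -1.09. The other genes that fell in DEGS1, COQ5 and COQ6, were called neither with the covariate nor without these arrays.

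Among 17 genes that control nuclear respiratory genes or mitochondrial DNA, MTERF1, a mitochondrial transcription termination factor, was called in SPTLC123 at -0.51 ± 0.12 (SE) (adjusted p = 0.017 in limma). None was called by limma in DEGS1, where 4 had an unadjusted p under 0.05. Of all genes, 9.94% were called in either direction in SPTLC123 and 9.7% in DEGS1. NRF1, a transcription factor of nuclear respiratory genes, changed by 0.36 ± 0.12 (SE) and 0.30 ± 0.12 (SE), and GABPA, another, by 0.06 ± 0.37 (SE) and -0.65 ± 0.37 (SE). GABPA stood at 7.26, 5.82 and 5.89 in DEGS1 siRNA and 7.46, 7.39 and 6.27 in SPTLC123, with its 3 lowest values in the weak arrays. PPARGC1A was dimmer than the median probe set in all 9 arrays.

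No gene encoded by mitochondrial DNA was called by limma among 7 measured, and none had an unadjusted p under 0.05. Their changes ran from -0.09 to 0.20 in SPTLC123 and from 0.04 to 0.79 in DEGS1, with the lowest adjusted p in limma at 0.831 and 0.337. They varied more between arrays of a group than the nuclear members. ND6, a complex I subunit, stood at 10.00, 8.85 and 8.96 in scramble, 9.34, 8.18 and 10.15 in SPTLC123 and 9.38, 10.40 and 10.39 in DEGS1 siRNA, so the groups overlapped. SPTLC123 replicate 2 was the lowest array of its group for all 7, and the weak arrays were high for ND2 and ND6.

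Promoters of members were read for sites of factors known to drive nuclear respiratory genes, with windows of 250 bases before the start of transcription from RefSeq (GRCh38.p14). An entry was found for 76 of the 90 members. The motifs, chosen after the values were seen, were CGCNTGCGC for NRF1, CCGGAAG for GABPA and related ETS factors and AAGATGGC for YY1, searched on both strands. Of 73 protein-coding member genes, 28.8% held the NRF1 motif and 24.7% the ETS motif, beside 11.2% and 14% of all genes with such a window. The YY1 motif was in 1.37% of members and 1.77% of all genes. Of the 10 called members with a window, 1 held the ETS motif (NDUFAF4) and the other 9 held none of the 3. A match is a description of letters and not a site.

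The windows of 3 called members from different complexes are shown with that of NDUFB4, a subunit that was not called and whose window holds the NRF1 motif. They were picked, after the values were seen, among windows with no annotated gene over them. Each is 250 bases, 5′ to 3′ on the plus strand, and capitals mark a match of the NRF1 motif. NDUFB3, at chr2:201071751-201072000, fell in both knockdowns; UQCRC2, at chr16:21953111-21953360, and COX7C, at chr5:86617691-86617940, fell in DEGS1. NDUFB4 lies at chr3:120596086-120596335.
NDUFB3: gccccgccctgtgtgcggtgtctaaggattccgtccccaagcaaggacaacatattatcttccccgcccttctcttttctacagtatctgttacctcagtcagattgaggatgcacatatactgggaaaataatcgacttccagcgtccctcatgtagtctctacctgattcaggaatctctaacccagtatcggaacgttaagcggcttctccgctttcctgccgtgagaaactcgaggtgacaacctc
UQCRC2: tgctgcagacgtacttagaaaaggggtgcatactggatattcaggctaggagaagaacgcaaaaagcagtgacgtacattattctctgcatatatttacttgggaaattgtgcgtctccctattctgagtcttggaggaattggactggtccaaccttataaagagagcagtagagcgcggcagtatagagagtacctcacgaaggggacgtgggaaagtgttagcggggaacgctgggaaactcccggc
COX7C: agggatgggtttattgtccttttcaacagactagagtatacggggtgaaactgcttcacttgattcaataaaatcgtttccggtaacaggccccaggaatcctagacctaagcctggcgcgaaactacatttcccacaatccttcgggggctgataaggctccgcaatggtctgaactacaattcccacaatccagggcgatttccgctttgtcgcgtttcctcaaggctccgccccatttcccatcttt
NDUFB4: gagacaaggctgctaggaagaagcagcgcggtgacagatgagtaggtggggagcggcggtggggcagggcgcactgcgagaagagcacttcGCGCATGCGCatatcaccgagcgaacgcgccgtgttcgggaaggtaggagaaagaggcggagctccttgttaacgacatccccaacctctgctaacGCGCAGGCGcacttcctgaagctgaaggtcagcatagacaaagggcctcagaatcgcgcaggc
The first 3 windows have no letters in capitals, and that of NDUFB4 has 2 runs. That these letters are missing from a window says nothing about the binding of a factor.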

How the data were processed

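Total RNA of 9 Huh7 samples was labelled with biotin and hybridised to Affymetrix arrays of 1 design, per the labels. The authors deposited a table of normalized intensity on a linear scale for 54675 probe sets, 62 of them controls; RMA, GCRMA 2.12.1 and limma 2.14.7 appear in the submitters' processing notes without their roles, so it is unknown which made the values. The genome build is not given in the sources used here.

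Intensities, none at or below 0, were log2-transformed with no pseudocount. Each of 19775 genes was read by the probe set annotated to it alone with the highest mean over the 9 arrays. Group means were estimated from the 9 arrays together by limma 3.58.1 under R 4.3.3 (lmFit, eBayes; 6 residual degrees of freedom; two-sided; Benjamini-Hochberg over all genes; called at an adjusted p under 0.05). The fit was tested on simulated data. Alternatives were other choices of probe set, scaling, variance model, array weights, a replicate block, a stricter threshold, the actin covariate and fits without single arrays or the weak arrays. Values after ± are SEs.

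Members, gene lists and the rule for named genes were chosen with earlier results of these data known. Named were all members called, the isoform pairs of complex IV, and for each complex its brightest member and that with the lowest adjusted p in each comparison against scramble; the other genes named as uncalled were picked after their values were seen. The comparison within the weak arrays was added after the data were seen. The manufacturer's control probe sets for actin gave the 3′ minus 5′ difference. Replicate numbers were not taken to pair the samples. SPTLC3 itself was not analysed here. Promoters came from RefSeq (GRCh38.p14). The number of arrays limits the precision.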

Additional observations from a re-analysis of the deposited data

How the results depend on the processing

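Counts of called members moved as follows, from 5 in SPTLC123 against scramble, 8 in DEGS1 against scramble, 6 between the knockdowns and 10 in the F test. With every probe set tested on its own, the brightest probe sets of 3 members were called in SPTLC123 and of 3 in DEGS1, beside 7.23% and 6.31% of all genes. With array weights they were 20 in DEGS1, 20 between the knockdowns and 20 in the F test, beside 21.6%, 20.2% and 29.9% of all genes. At an adjusted p under 0.01 they were 1, 1, 1 and 2, beside 4.47%, 3.5%, 3.63% and 6.93% of all genes. With the actin covariate they were 1 in DEGS1 and 10 between the knockdowns. Without the 3 arrays of weak 5′ signal they were 2, 0, 1 and 1. With median centring 2 were called in SPTLC123, beside 10.1% of all genes. Leaving out each array in turn gave 1 to 5 in SPTLC123, 1 to 16 in DEGS1, 1 to 13 between the knockdowns and 4 to 18 in the F test. The shares of all genes called ran from 5.96% to 12.0%, 4.05% to 18.3%, 4.25% to 14.7% and 10.3% to 25.1% in that order.

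Some medians by complex moved beyond the spread of arrays. In SPTLC123, complex III was -0.037 when probe sets of a gene were averaged, and complex V -0.0087 with array weights. In DEGS1, complex II was -0.23 with array weights, 0.118 with the covariate and 0.148 without the weak arrays, and quantile normalization gave 0.037 in complex III and -0.064 in V. Between the knockdowns, quantile normalization gave 0.086 in complex I, 0.093 in III and 0.00050 in V, and median centring -0.0098 in IV and -0.136 in V. The mean of probe sets gave -0.023 in V, and the assembly factors were at -0.24 without the weak arrays. Leaving out 1 array gave medians in SPTLC123 of -0.137 to -0.070 in complex IV, and in DEGS1 of -0.25 to 0.0031 in II, -0.100 to -0.050 in IV and -0.15 to -0.074 in V; between the knockdowns complex IV ran from 0.00021 to 0.0868. The causes of these moves were not tested.

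Over all refits, single called members kept their call 264 times and lost it 116 times, and none changed direction. With the replicate number as a block, 5, 9, 6 and 12 members were called. Beside these, 10.43% of all genes were called in SPTLC123, 10.96% in DEGS1, 9.11% between the knockdowns and 17.25% in the F test. Over 9 pairs of same-numbered arrays the correlation of deviations from the group means ran from -0.49 to 0.70, with 3 above 0.1. SPTLC123 replicate 3 reached 0.70 with DEGS1 replicate 3 and 0.60 with DEGS1 replicate 2, all of them weak arrays. These correlations therefore cannot tell whether the numbers pair the samples.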
